A study of Mus musculus with 6 samples.

Results

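Interferon-induced antiviral effectors are the proteins that a cell makes after it senses interferon and that act on viruses or on the RNA, DNA and membranes viruses use. A list of 45 such genes was followed here among the 23518 genes measured in mouse ear skin. The list was compiled by gene symbol, leaves out the interferon signalling factors, the OAS genes and the GTPases of the GBP and IRG families, and was found complete in the data. All 45 members passed the filter on low values, which 15049 genes passed in all. The study compared 3 wild-type (WT) and 3 HdR samples of ear skin, taken 1 day after topical treatment with 10 mg of a cream holding 5% imiquimod. HdR is the labels' name for mice with the HOIL1 ΔRING1 allele. HOIL1, encoded by Rbck1, is a subunit of the complex that builds linear ubiquitin chains. Both groups received imiquimod, no untreated skin was analysed here, and the title of the study names linear ubiquitination in keratinocytes. Which cells carry the allele, and the strain, age and sex of the mice, were not given in the labels, and these also do not say whether each sample is a separate mouse, so p-values measure the spread between these samples, which may be technical.

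As background, imiquimod activates the receptor TLR7, which plasmacytoid dendritic cells and other immune cells use to sense RNA, and these cells answer with type I interferon. Interferon binding to its receptor activates JAK kinases, which phosphorylate transcription factors in the cytoplasm. Together with IRF9 these form a complex that binds the interferon-stimulated response element (ISRE) in the promoters of effector genes. Interferon gamma acts mainly through another element, the gamma-activated site (GAS). In skin, keratinocytes, fibroblasts and immune cells can all respond.

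The letters of the ISRE were common in the members' promoters, and a few promoters are printed here because they show the element through which these genes are known to be switched on. RefSeq promoters (GRCm38.p6, 250 bases before to 50 bases after the gene start, 300 bases in all) were found for 37 of the 45 members. The table held no entry for Mx1, Mx2, Parp9, Parp10, Parp14, Ifi204, Rtp4 or Ifi27l2a. The ISRE core, searched on both strands, was GAAA and GAAA with any 2 bases between them (TTTC, any 2 bases, TTTC on the other strand). It occurred in 16 of the 37 (43.2%), against 3.99% of the 27025 genes with a promoter of that length and 3.95% of the tested ones. The GAS core TTCNNNGAA, which reads the same on both strands, occurred in 6 of the 37 (16.2%), against 9.55% of all genes with a promoter and 8.45% of the tested ones. A match is a description of letters in this window and no measure of binding. The 10 windows of 60 bases below lie before the gene start and are given on the gene's strand with the letters that match the ISRE core in capitals; matches that touch or overlap form 1 capital run. Ifit1, Ifit3, Ifit3b, Isg15, Bst2 and Ddx60 held more than 1 match.
Ifit1: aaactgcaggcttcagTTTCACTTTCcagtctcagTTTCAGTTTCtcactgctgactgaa
Ifit3: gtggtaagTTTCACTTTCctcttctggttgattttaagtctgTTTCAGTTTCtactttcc
Ifit3b: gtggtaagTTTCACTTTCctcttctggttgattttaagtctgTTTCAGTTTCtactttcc
Isg15: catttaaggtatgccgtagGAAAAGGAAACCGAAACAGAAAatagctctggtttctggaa
Bst2: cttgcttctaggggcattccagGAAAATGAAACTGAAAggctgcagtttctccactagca
Ddx60: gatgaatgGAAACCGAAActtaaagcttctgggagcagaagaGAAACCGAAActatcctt
Rsad2: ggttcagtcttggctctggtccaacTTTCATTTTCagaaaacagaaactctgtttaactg
Slfn9: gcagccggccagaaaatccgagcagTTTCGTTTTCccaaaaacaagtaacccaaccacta
Slfn8: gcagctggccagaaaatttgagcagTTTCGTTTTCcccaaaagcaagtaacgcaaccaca
Lgals9: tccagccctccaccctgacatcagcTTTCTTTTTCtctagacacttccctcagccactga
The windows lie at chr19:34640769-34640828 (Ifit1, plus strand), chr19:34583365-34583424 (Ifit3, plus), chr19:34607761-34607820 (Ifit3b, plus), chr4:156200856-156200915 (Isg15, minus), chr8:71537565-71537624 (Bst2, minus), chr8:61928026-61928085 (Ddx60, plus), chr12:26456538-26456597 (Rsad2, minus), chr11:82991841-82991900 (Slfn9, minus), chr11:83020824-83020883 (Slfn8, minus) and chr11:78984945-78985004 (Lgals9, minus). The Ifit3 and Ifit3b windows were identical in 60 of 60 bases. The element was found in 8 of the 18 members with a promoter that were lower in HdR skin and in 8 of the 19 that were not called.

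In HdR skin, many of these effectors were at a lower level than in WT skin, and the lower ones came from 10 of the 12 roles into which the list was divided. Values are normalised coverage: the bases aligned to a gene per Mb (megabase) of the library's effective size, a unit read from the steps of the deposited values. Changes are fitted log2 differences, HdR minus WT, on the log2(value + 1) scale. A gene was called when the p-value of limma, adjusted by the Benjamini-Hochberg method over all 15049 genes, was under 0.05. By this rule 23 of the 45 members (51.1%) were lower in HdR, against 17.9% of all genes tested. In the higher direction 0 members were called, against 12.7% of all genes, although 3 members (Ifitm1, Ifitm2 and Ifi27l2a) were higher at an unadjusted p under 0.05. The members' median change was -0.86, and that of all genes was -0.13. Another variance model (voom) called 3 members higher (Ifitm1, Ifitm2 and Ifi205) and 26 lower. Of all 15049 genes voom called 3398 higher and 4647 lower. In 22 members every HdR library lay below every WT library, against 30.7% of all genes, and in 2 members, Ifitm1 and Ifitm2, every HdR library lay above, against 20.9%. The count of lower members was 6 without WT replicate 1, with 230 of 14832 genes lower, and 15 without HdR replicate 2, with 1139 of 14918. With all libraries 2701 of 15049 genes were lower. In bulk skin, fewer cells of a type and less RNA per cell cannot be told apart.

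**Figure D1:**
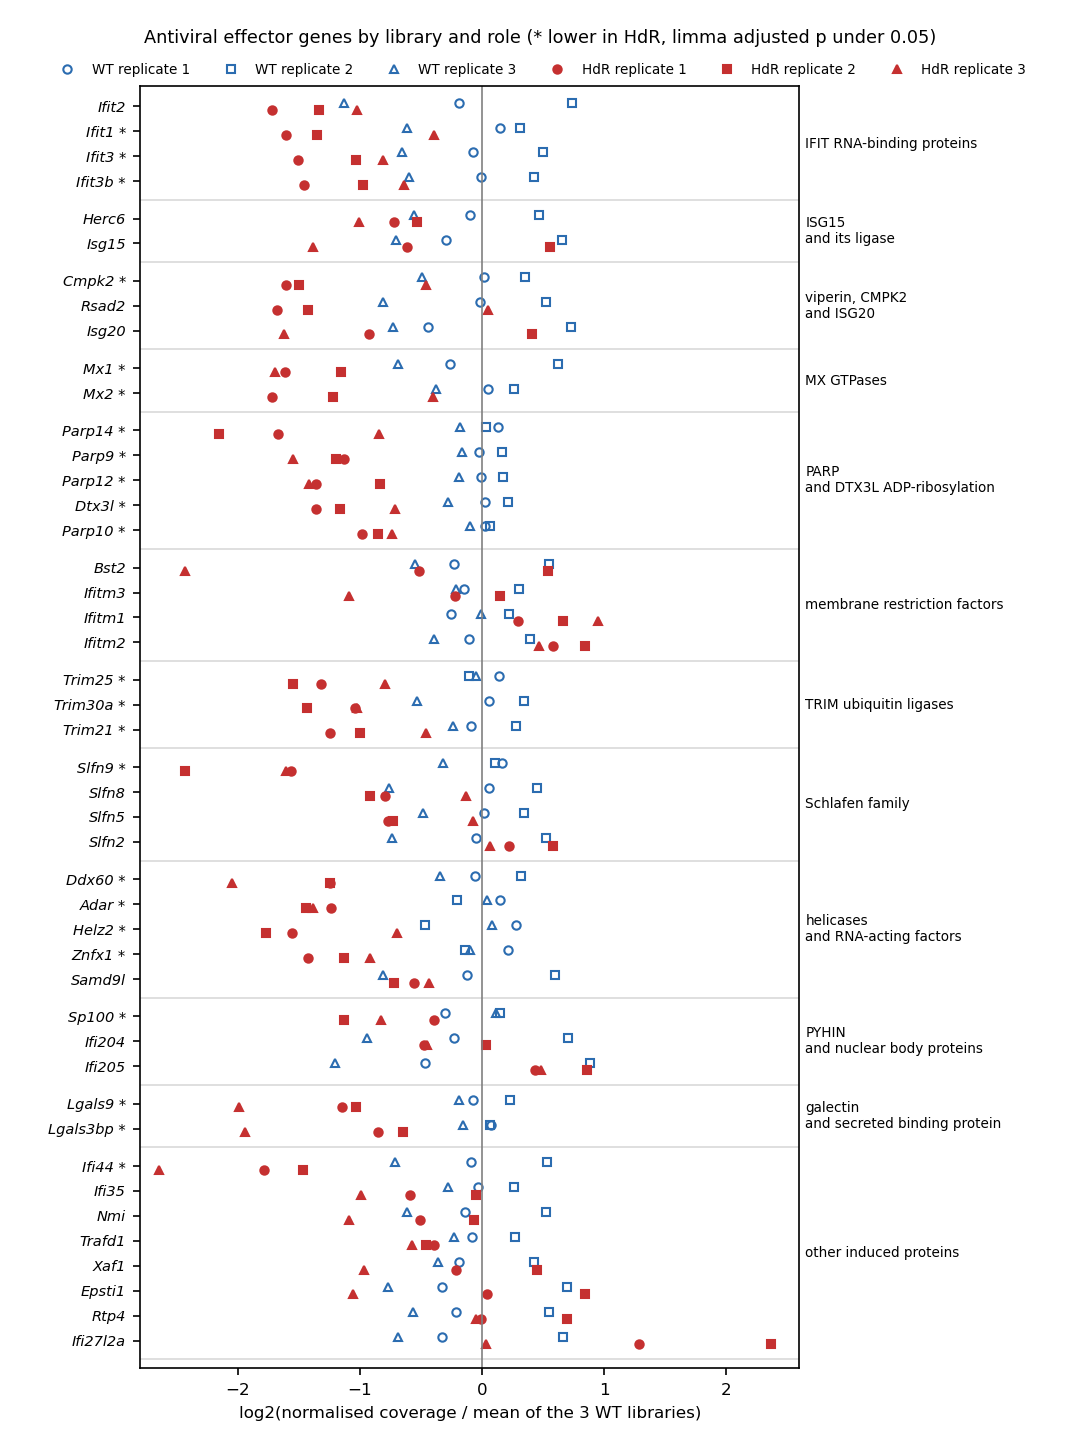
Normalised coverage of each of the 45 members in each library, as log2 of its ratio to the mean of the 3 WT libraries, grouped by role. Open blue symbols are WT and filled red symbols HdR, with 1 shape per replicate number, and an asterisk marks the 23 members called lower; in the rows with asterisks the red symbols lie to the left, while Ifi27l2a, Ifitm1 and Ifitm2 lie to the right.

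Transcript length moved with the genotypes in these libraries and bears on all of these values. Within each library, coverage relative to the mean of all libraries changed with transcript length, with slopes per log2 of length from 0.0404 to 0.247 in WT and from -0.272 to -0.0805 in HdR. Long genes were therefore lower in HdR across the data: the median change was 0.44 in the shortest of 5 equal length classes and -0.51 in the longest. Rn45s, the ribosomal RNA precursor, also moved with genotype, at 997, 1167 and 863 bases per Mb in WT and 3958, 19414 and 12451 in HdR (change 3.30, limma adjusted p = 0.0076). Its part, and that of RNA quality, library making or the tissue, in the length trend and in the members' changes was not tested. For this reason the members' changes are also given with the length trend removed, by fitting a smooth curve on transcript length in every library and subtracting it. Without the length trend 20 members were lower, against 8.47% of genes, and 0 were higher, against 10.9%, with 0 members higher at an unadjusted p under 0.05. This count of lower members was 1 when WT replicate 1 was left out (90 over all genes), 5 for HdR replicate 1 (661), 10 for HdR replicate 2 (412) and 11 for WT replicate 3 (220). With all libraries 1263 genes were lower. The members' median was then -0.85, and that of all genes 0.00. In 22 members the HdR libraries then lay below all WT libraries, against 20.4% of genes, and in 0 members above, against 22.9%. By both fits 17 members were lower. Cmpk2, Ddx60, Dtx3l, Helz2, Ifit1 and Sp100 were lower by the first fit only, and Ifi35, Ifitm3 and Nmi with the trend removed only.

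The labels do not say whether the replicate numbers pair the samples of the 2 groups. By a check on these same data, given with the methods, they were taken to do so. The block was thus chosen from the values to which it was fitted. Its p-values may therefore be too small, and calls made only with the block are tentative. A fit with the number as a block called 29 members lower, against 27.2% of genes, and 4 higher (Ifi205, Ifi27l2a, Ifitm1 and Ifitm2), against 18.3%. The 29 held all 23 of the unblocked fit and added Herc6, Ifi35, Ifit2, Isg20, Nmi and Trafd1. With the block and the length trend removed together, 25 members were lower, against 14.6% of genes, and 2 higher, against 16.5%: Bst2, Ddx60, Helz2, Isg15 and Isg20 joined the 20 of the length-corrected fit, and Ifi205 and Ifi27l2a were higher.

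The libraries held 4433 to 5966 Mb of aligned bases, the amount that 14.8 to 19.9 M pairs of reads with 300 bases each would give, so that 1 base per Mb stood for 11.7 to 23.6 pairs. Rbck1, the gene that carries the allele, was at 66.6, 55.1 and 64.1 bases per Mb in WT replicates 1, 2 and 3 and at 23.9, 13.0 and 19.7 in the HdR ones, a fitted change of -1.70 (limma adjusted p = 0.00438).

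The markers of several cell types moved with genotype, and their part in the members' changes was not tested. Over all genes 17.9% were called lower and 12.7% higher, and 8.47% and 10.9% with the length trend removed. Keratinocyte markers, by which the tissue was checked as skin, summed to 11409 to 13118 bases per Mb in WT and 8642 to 10152.0 in HdR, with 3 of 10 lower, and 1 lower and 1 higher with the length trend removed. Hair follicle markers summed to 404 to 609 bases per Mb in WT and 24.2 to 75.1 in HdR, with 10 of 11 lower and Shh at 0 in at least 1 library. Macrophage and monocyte markers summed to 1089 to 2089 in WT and 3222 to 3591 in HdR (8 of 13 higher), and neutrophil markers to 145 to 201 in WT and 705 to 3193 in HdR (6 of 8 tested higher). Most of the neutrophil sum was S100a8 and S100a9. S100a8 was at 50.4 to 68.9 in WT and 244 to 1421 in HdR, and S100a9 at 70.3 to 103 and 396 to 1708. Csf3r and Mmp9 were not called, and Ly6g did not pass the filter. Langerhans and dendritic cell markers were at 193 to 206 in WT and 277 to 297 in HdR (4 of 8 higher), and adipocyte markers at 568 to 657 and 2099 to 3072 (5 of 6 higher). Skeletal muscle markers were at 1677 to 2475 and 3017 to 3767 (3 of 6 higher), endothelium markers at 140.3 to 151 and 86.3 to 129 (2 of 7 lower), and fibroblast markers at 5274 to 7469 and 5559 to 6998 (2 of 8 lower). The higher muscle markers were Ckm, Tnnt3 and Myl1. Acta1, Myh4 and Myh1 went the other way (-0.16, -0.99 and -1.05) and were not called. With the replicate block Myh4 and Myh1 were lower, so 2 muscle markers were lower and 3 higher. With the length trend removed those 7 endothelium markers were not called, 1 fibroblast marker was lower and 2 were higher, 7 macrophage, 3 Langerhans and dendritic cell and 2 muscle markers were higher, and the neutrophil, adipocyte and hair follicle counts stayed at 6, 5 and 10. T and NK cell markers were at 27.1 to 50.9 and 32.9 to 55.2, with Ncr1 at 0 in at least 1 library. The 8 markers of plasmacytoid dendritic cells summed to 1795 to 2297 in WT and 1939 to 2613 in HdR, with Klk1 at 0 in at least 1 library. Most of that sum was Ly6d, at 1596 to 2090 in WT and 1733 to 2409 in HdR. Of the 6 tested, 1 was higher, beside 12.7% of all genes, and 5 were not called, among them Ccr9 (0.06) and Tcf4 (-0.13). The 1 called was Siglech, a defining marker of these cells. It was near the filter, at 0.249 to 0.985 in WT and 1.43 to 2.30 in HdR (limma adjusted p = 0.0216).

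The IFIT proteins bind viral RNA and keep it from being translated. Ifit1, which recognises RNA whose cap lacks the methyl marks of host mRNA, lies at chr19:34640871-34650009 (GRCm38, 2 exons). It stood at 495, 554 and 291 bases per Mb in WT replicates 1, 2 and 3 and at 146, 175 and 341 in HdR. The third HdR library lay inside the WT range. The group means were 446 ± 138 in WT and 220.5 ± 105 in HdR (SD, n = 3 each) (log2 change -1.06, SE 0.35, limma adjusted p = 0.0458), and with the length trend removed the change was -1.03 (adjusted p = 0.0653). Ifit3 was the most covered of the 4 at 821, 1225 and 551 in WT and 305, 423 and 493 in HdR. Its groups did not overlap, with a log2 change of -1.04 (SE 0.31, adjusted p = 0.0353) and -1.28 with the trend removed (adjusted p = 0.0216). Ifit3b, a near copy of Ifit3, changed by -0.96 (adjusted p = 0.0365, and -1.12, adjusted p = 0.0283, with the trend removed) from 207, 279 and 137 to 75.5, 105 and 133. Reads may be shared between these copies, and how the authors treated them is not given in the sources used here, so Ifit3 and Ifit3b cannot be read as separate measurements. Ifit2, which binds AU-rich RNA, was at 308, 587 and 160.5 in WT and 107, 139 and 173 in HdR. The third WT library lay below the third HdR library, and its change of -1.16 missed the threshold (adjusted p = 0.0578). With the trend removed the change was -0.90 (adjusted p = 0.162). With the replicate block it passed (adjusted p = 0.0321), but not with block and trend removal together (adjusted p = 0.0987).

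ISG15 is a ubiquitin-like protein that is joined to newly made proteins, and HERC6 is the main ligase for it in mice. Isg15 (chr4:156199424-156200818) was at 397, 764 and 298 in WT and 318, 717 and 186 in HdR. The second library of each group was the highest, HdR replicate 3 was the lowest of all, and the groups overlapped, with a change of -0.36 (SE 0.49, limma adjusted p = 0.581). Isg15 is short, and with the trend removed its change was -0.94 (adjusted p = 0.107). With the replicate block and the trend removed together it was called lower (adjusted p = 0.00403). Herc6 was at 92.1, 137 and 67.0 in WT and 59.7, 68.1 and 48.9 in HdR, with a change of -0.69 (adjusted p = 0.0671, and 0.00801 with the block). After removal of the trend it was -0.32 (adjusted p = 0.457, and 0.111 with the block as well).

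Viperin (Rsad2) and CMPK2 work in sequence: CMPK2 is a nucleotide kinase that can supply CTP, and viperin turns CTP into a chain terminator of viral RNA synthesis. Their genes are neighbours on chromosome 12, 12.8 kb apart. Rsad2 was at 198, 288 and 114 in WT and 62.5, 74.6 and 207 in HdR. HdR replicates 1 and 2 were below all WT libraries, and HdR replicate 3 was above 2 of them, and the change of -0.91 (SE 0.46) was not called (limma adjusted p = 0.149, and -0.60, adjusted p = 0.372, with the trend removed). Cmpk2 was at 85.9, 109 and 60.5 in WT and 28.0, 30.2 and 62.0 in HdR, again with HdR replicate 3 nearest to WT, and was lower (-1.12, adjusted p = 0.0313). Without the length trend the change was -0.95 (adjusted p = 0.0649). Isg20, an exonuclease that degrades single-stranded RNA, was at 44.9, 101 and 36.9 in WT and 32.2, 81.2 and 19.9 in HdR and was not called (-0.55, adjusted p = 0.415, and 0.0192 with the block). With the trend removed it was -1.02 (adjusted p = 0.112, and 0.00354 with the block as well).

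MX proteins are dynamin-like GTPases that trap viral nucleoproteins, and both members were lower in HdR by both fits. Mx1 (chr16:97447035-97462907, 15 exons), known for its action against influenza virus in the nucleus, was at 246, 454 and 182 in WT and 96.3, 132 and 90.9 in HdR. Its groups did not overlap, with means of 294 ± 142 in WT and 107 ± 22.5 in HdR (SD, n = 3 each), a change of -1.37 (SE 0.31, limma adjusted p = 0.0174) and -1.18 with the trend removed (adjusted p = 0.043). Mx2, which the annotation used here (GENCODE M21) types as a polymorphic pseudogene, was at 53.2, 61.8 and 39.7 in WT and 15.7, 22.1 and 39.2 in HdR. Here the lowest WT library and the third HdR library lay close together (change -1.05, adjusted p = 0.0342, and -1.07, adjusted p = 0.0444, with the trend removed). With the trend fitted on coding transcript lengths instead, Mx1 and Mx2 just missed the threshold (adjusted p = 0.0541 and 0.0515).

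The ADP-ribosylation group was lower as a whole: 5 of 5 members by the first fit and 4 of 5 with the length trend removed. These enzymes attach ADP-ribose to proteins or, for DTX3L, ubiquitin. Parp9, which forms a complex with DTX3L, was at 193, 220.3 and 175 in WT and 89.5, 85.8 and 67.1 in HdR. The replicates were tight and the groups far apart, with means of 196 ± 22.6 in WT and 80.8 ± 12.0 in HdR (SD, n = 3 each) (change -1.27, SE 0.17, limma adjusted p = 0.00484). After removal of the trend the change was -1.05 (adjusted p = 0.0124). Dtx3l was at 83.1, 95.1 and 67.3 in WT and 31.9, 36.5 and 49.8 in HdR (-1.05, adjusted p = 0.0131) and did not pass with the trend removed (-0.64, adjusted p = 0.0713). The annotated ends of Dtx3l and Parp9 overlap by 0.682 kb on opposite strands of chromosome 16, and whether counting used the strand is not given in the sources used here, so part of their coverage may be shared. Parp14, which also carries domains that read ADP-ribose, lies 55.0 kb from Dtx3l. It was at 155, 145 and 125 in WT and 44.5, 31.8 and 78.9 in HdR, with the third HdR library nearest to WT (-1.53, adjusted p = 0.0123, and -1.02, adjusted p = 0.0324, with the trend removed). Parp12, a zinc finger member that represses translation of viral RNA, was at 134, 152 and 119 in WT and 52.7, 75.6 and 50.5 in HdR (-1.18, adjusted p = 0.00831, and -1.02, adjusted p = 0.0196, with the trend removed). Parp10, a mono-ADP-ribosyltransferase, changed least of the 5, from 47.4, 48.7 and 43.4 to 23.5, 25.7 and 27.9 (-0.83, adjusted p = 0.0109, and -0.63, adjusted p = 0.0233, with the trend removed), with little spread in either group.

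The membrane restriction factors were not called by the first fit, and Ifitm3 was the 1 of 4 that passed with the length trend removed. IFITM proteins stop viral envelopes from fusing with the cell's membranes, and BST2 (tetherin) holds budding virus at the cell surface. Ifitm3 was at 635, 871 and 606 in WT and 605, 778 and 331 in HdR. The first and second HdR libraries lay close to or inside the WT range and the third below it (change -0.37, limma adjusted p = 0.382, and -0.97, adjusted p = 0.0249, with the trend removed). Ifitm2 was at 319, 452 and 262 in WT and 514, 618 and 477 in HdR, every HdR library above every WT library, with means of 344 ± 97.4 in WT and 536 ± 73.2 in HdR (SD, n = 3 each). Its change of 0.67 (SE 0.23) did not pass (adjusted p = 0.0561, and 0.00528 with the block), and it was 0.05 with the trend removed (adjusted p = 0.827, and 0.781 with the block as well). Ifitm1, low throughout at 9.50, 13.2 and 11.3 in WT and 13.9, 18.0 and 21.9 in HdR, likewise had a change of 0.61 (adjusted p = 0.0552, and 0.0171 with the block) and of 0.07 with the trend removed (adjusted p = 0.834, and 0.757 with the block as well). Bst2 had the widest HdR spread of the group, at 428, 732 and 343 in WT and 351, 729 and 92.7 in HdR. HdR replicate 3 was the lowest of the 6 by a wide gap, while HdR replicate 2 was level with the highest WT library, and the change of -0.72 (SE 0.64) was not called (adjusted p = 0.395, and -1.29, adjusted p = 0.122, with the trend removed). With the block and the trend removed together Bst2 was called lower (adjusted p = 0.0256).

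The 3 TRIM ubiquitin ligases were all lower by both fits. TRIM25 acts on RNA-sensor signalling and on viral RNA, TRIM21 is an antibody receptor inside the cell, and TRIM30a is a mouse relative of the retroviral restriction factor TRIM5. Trim25 was at 86.9, 73.2 and 75.9 in WT and 31.5, 26.9 and 45.4 in HdR, the groups well apart (-1.19, SE 0.20, limma adjusted p = 0.00975, and -0.76, adjusted p = 0.0223, with the trend removed). Trim30a was at 87.6, 107 and 58.3 in WT and 40.8, 31.1 and 41.3 in HdR (-1.11, adjusted p = 0.0146, and -0.85, adjusted p = 0.0343, with the trend removed). Trim21 was at 48.4, 62.5 and 43.8 in WT and 21.8, 25.7 and 37.4 in HdR (-0.86, adjusted p = 0.0254, and -0.79, adjusted p = 0.0398, with the trend removed), with the third HdR library nearest to WT. With the trend fitted on coding transcript lengths Trim21 just missed the threshold (adjusted p = 0.0532).

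The Schlafen genes sit in a cluster on chromosome 11, and 1 of the 4 was lower. Schlafen proteins act on tRNA and on cell growth, and the longer ones carry a helicase-like part. Slfn9 (chr11:82978390-82991830) was at 38.1, 36.6 and 27.2 in WT and 11.5, 6.30 and 11.1 in HdR, with means of 34.0 ± 5.94 in WT and 9.64 ± 2.90 in HdR (SD, n = 3 each). All HdR libraries were far below all WT libraries (-1.74, SE 0.25, limma adjusted p = 0.00566, and -1.30, adjusted p = 0.0133, with the trend removed). It had the lowest single value of any member, 6.30 bases per Mb. Slfn8, its neighbour and close relative, was at 46.6, 61.3 and 26.4 in WT and 25.8, 23.6 and 40.9 in HdR, with overlap (-0.52, adjusted p = 0.223, and -0.23, adjusted p = 0.624, with the trend removed). Slfn5, a nuclear member, was at 187, 235 and 132 in WT and 109, 111 and 176 in HdR (-0.48, adjusted p = 0.175, and -0.03, adjusted p = 0.951, with the trend removed). Slfn2, a short member that protects tRNA in T cells, was at 164, 244 and 102 in WT and 198, 254 and 178 in HdR (0.38, adjusted p = 0.341, and 0.11, adjusted p = 0.77, with the trend removed). The values of these related genes depend on how the authors assigned reads that fit more than 1 copy.

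**Figure D2:**
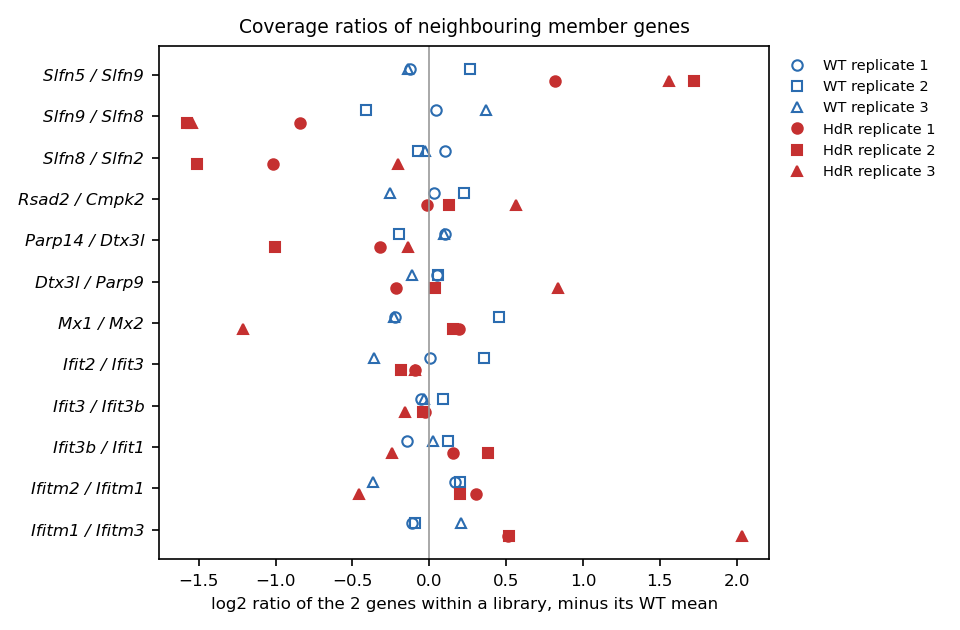
Log2 ratio of coverage between neighbouring members within each library, minus the mean of that ratio over the 3 WT libraries, for the 12 pairs (1 row each). Open blue symbols are WT and filled red symbols HdR, with 1 shape per replicate number; in both rows with Slfn9 the red symbols lie clear of the blue ones, while in the row of Ifit3 and Ifit3b all 6 symbols lie close to 0.

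Members that lie side by side can be compared within a library, where scaling cancels and the length trend, for transcripts of unlike length, does not. There were 12 pairs of neighbouring members within 100 kb, and in 4 of them the ratio of the pair did not overlap between the genotypes. The share over other neighbouring genes was not taken. Of single genes, 30.7% had every HdR library below every WT library and 20.9% above. A ratio of 2 genes is another measure, so these shares are no baseline for the 4 pairs. The Schlafen pairs among the 4 share Slfn9 or Slfn8 and are not independent of each other. The log2 ratio of Slfn5 to Slfn9 was 2.30, 2.68 and 2.28 in WT replicates 1, 2 and 3 and 3.24, 4.14 and 3.98 in HdR, a difference of 1.37 between transcripts of similar length (5979 and 5769 nt). The ratio of Slfn9 to Slfn8 (5769 and 4011 nt) differed by -1.32, that of Slfn8 to Slfn2 (4011 and 1664 nt) by -0.91 and that of Ifitm1 to Ifitm3 (882 and 678 nt) by 1.02. With the length trend removed these 4 differences were 1.35, -1.15, -0.34 and 1.05, and the ratios of Slfn8 to Slfn2 then overlapped between the genotypes. Each gave an exact two-sided permutation p of 0.1, the smallest that 3 against 3 samples allow, and 0.3 after adjustment over the 12 pairs, so a design of this size cannot reach 0.05 here. The log2 ratio of Ifit3 to Ifit3b stayed between 1.89 and 2.13 in all 6 libraries and differed by -0.08, and by -0.16 without overlap with the trend removed. The log2 ratio of Mx1 to Mx2 was lowest in the third HdR library, at 1.22 against 2.20 to 2.88 in the other 5.

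Among the helicases and RNA-acting factors, 4 of 5 members were lower by the first fit and 2 of 5 with the length trend removed, and most of these transcripts are long. ADAR, which edits adenosine to inosine in double-stranded RNA and so marks it as the cell's own, had the tightest replicates. Adar (chr3:89715022-89753446, 15 exons) was at 80.6, 63.0 and 74.9 in WT and 30.9, 26.8 and 27.9 in HdR, means 72.8 ± 8.96 in WT and 28.6 ± 2.13 in HdR (SD, n = 3 each). The groups lay far apart (-1.32, SE 0.16, limma adjusted p = 0.00349), and the change was -0.87 with the trend removed (adjusted p = 0.00807). Znfx1, a helicase that senses viral RNA at mitochondria, was at 55.0, 43.2 and 44.3 in WT and 17.6, 21.7 and 25.1 in HdR (-1.12, adjusted p = 0.0087, and -0.61, adjusted p = 0.0454, with the trend removed). Ddx60, a helicase that promotes RNA sensing, was at 102, 132 and 83.6 in WT and 44.5, 44.6 and 25.5 in HdR (-1.47, adjusted p = 0.00985), and with the trend removed it just missed the threshold (-0.98, adjusted p = 0.0536), and passed with the block as well (adjusted p = 0.00346). Helz2, a helicase-like nuclear coactivator with the longest transcript of the list (10109 nt), was at 37.5, 22.4 and 32.7 in WT and 10.5, 9.02 and 19.0 in HdR (-1.24, adjusted p = 0.0183). Without the length trend it was -0.66 (adjusted p = 0.0685, and 0.0471 with the block as well). Samd9l, which stops protein synthesis in infected cells, was at 263, 435 and 164 in WT and 195, 174 and 212 in HdR and was not called (-0.46, adjusted p = 0.274). Its change with the trend removed was -0.04 (adjusted p = 0.937).

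The PYHIN proteins include sensors of DNA, and neither of the members from this family was called lower. Ifi204 was at 225, 431 and 137 in WT and 190.4, 271 and 193 in HdR (-0.14, limma adjusted p = 0.786, and -0.20, adjusted p = 0.693, with the trend removed). Ifi205 was at 104, 264 and 62.1 in WT and 194, 261 and 201 in HdR, all 3 HdR libraries between WT replicates 1 and 2, and its change of 0.85 (SE 0.44) was not called (adjusted p = 0.155). With the trend removed it was 1.03 (adjusted p = 0.135). That value used the longest transcript (3274 nt), and the longest coding transcript has 1613 nt. With the trend fitted on coding transcript lengths the change was 0.60 (adjusted p = 0.294). With the replicate block Ifi205 was called higher (adjusted p = 0.0399, and 0.0291 with the trend on the longest transcript removed as well). The PYHIN genes are a family of close copies, so these 2 values depend on the assignment of shared reads. Sp100, a component of nuclear bodies that silence viral DNA, was at 59.3, 81.1 and 79.6 in WT and 55.7, 33.4 and 41.2 in HdR and was lower (-0.76, adjusted p = 0.0322), but not with the trend removed (-0.50, adjusted p = 0.0909).

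Both glycan-related members were lower by both fits, although neither transcript is long. Lgals9 encodes galectin 9, a secreted lectin that modulates T cells, and was at 132, 163 and 122 in WT and 62.5, 67.8 and 35.0 in HdR, means 139 ± 21.1 in WT and 55.1 ± 17.6 in HdR (SD, n = 3 each). Its groups were well apart (-1.36, SE 0.25, limma adjusted p = 0.0114, and -1.66, adjusted p = 0.00486, with the trend removed). It was called lower in 25 of the 25 settings run. Lgals3bp, a secreted glycoprotein that binds galectins, was at 125, 125 and 106 in WT and 66.0, 75.8 and 31.0 in HdR, with the third HdR library lowest (-1.12, adjusted p = 0.0261, and -1.18, adjusted p = 0.0274, with the trend removed).

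The remaining 8 members form no family. Ifi44, a cytoplasmic protein that restrains cell growth and virus replication, had the largest fall of the 45 by the first fit: 124, 192 and 80.7 in WT and 38.4, 47.8 and 21.1 in HdR, means 132 ± 56.0 in WT and 35.8 ± 13.5 in HdR (SD, n = 3 each). No HdR library reached the lowest WT library (-1.85, SE 0.36, limma adjusted p = 0.0127, and -1.55, adjusted p = 0.0311, with the trend removed). With the trend removed Lgals9 fell further (-1.66). IFI35 and NMI bind each other. Ifi35 was at 146, 178 and 122 in WT and 98.7, 144 and 74.9 in HdR, and Nmi at 128, 204 and 92.4 and 99.4, 135 and 66.5. Both overlapped between groups and were lower with the trend removed (-0.89, adjusted p = 0.0189, and -0.87, adjusted p = 0.0425) and with the block (adjusted p = 0.0152 and 0.0168). By the first fit they were at -0.52 (adjusted p = 0.13) and -0.47 (adjusted p = 0.273). Trafd1, a feedback regulator of innate signalling, was at 127, 161 and 114 in WT and 102, 97.5 and 89.8 in HdR, without overlap, and missed the threshold (-0.46, adjusted p = 0.068, and 0.0279 with the block). After removal of the trend it was -0.32 (adjusted p = 0.176, and 0.0761 with the block as well).

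Ifi27l2a, which encodes a small membrane protein, went the other way. It was at 302, 601 and 235 in WT and 925, 1960.5 and 389 in HdR, means 379 ± 195 in WT and 1091 ± 799 in HdR (SD, n = 3 each). The first and second HdR libraries were above all WT libraries and the third was inside the WT range, and the change of 1.35 carried an SE of 0.55 and was not called (limma adjusted p = 0.0877). Its transcript is the shortest of the list (463 nt), and with the length trend removed the change was 0.68 (adjusted p = 0.285). With the replicate block it was called higher without and with trend removal (adjusted p = 0.00196 and 0.0367). Rtp4, a chaperone of membrane receptors that dampens the interferon response, was at 145, 245 and 113 in WT and 167, 271 and 162 in HdR (0.29, adjusted p = 0.479, and 0.09, adjusted p = 0.832, with the trend removed). Xaf1, a partner of the cell death inhibitor XIAP, was at 109, 167 and 96.9 in WT and 107, 170.0 and 63.6 in HdR (-0.20, adjusted p = 0.669, and -0.18, adjusted p = 0.728, with the trend removed). Epsti1 was at 40.3, 81.9 and 29.7 in WT and 52.0, 90.6 and 24.4 in HdR (0.08, adjusted p = 0.91, and -0.12, adjusted p = 0.858, with the trend removed). Of the members, Rtp4 and Epsti1 changed sign among the 4 scalings tried.

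Most members also lay below genes of like transcript length. In 37 of the 45 members the change was below the median of all genes in the same length class. Of the 10 members in the longest class 8 were lower, in a class where 37.8% of all genes were. In the classes between, from longer to shorter, 2 of 6 members were lower against 23.0% of genes, 6 of 8 against 16% and 5 of 9 against 8.36%. Of the 12 in the shortest class, Ifit3 and Lgals9 were lower (2), in a class where 5.1% of all genes were and 36.2% were higher. Without the length trend the members lower were, from the longest class to the shortest, 5, 1, 5, 4 and 5, against 9.66%, 6.41%, 7.81%, 8.69% and 9.79% of genes. The members' change and log2 length had a Pearson r of -0.62 and a Spearman rho of -0.60 over 45 genes, with r at -0.49 without the 2 members farthest from the median length. Over all 14903 genes with a length these were -0.48 and -0.51. These are descriptions across genes that share 6 libraries.

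**Figure D3:**
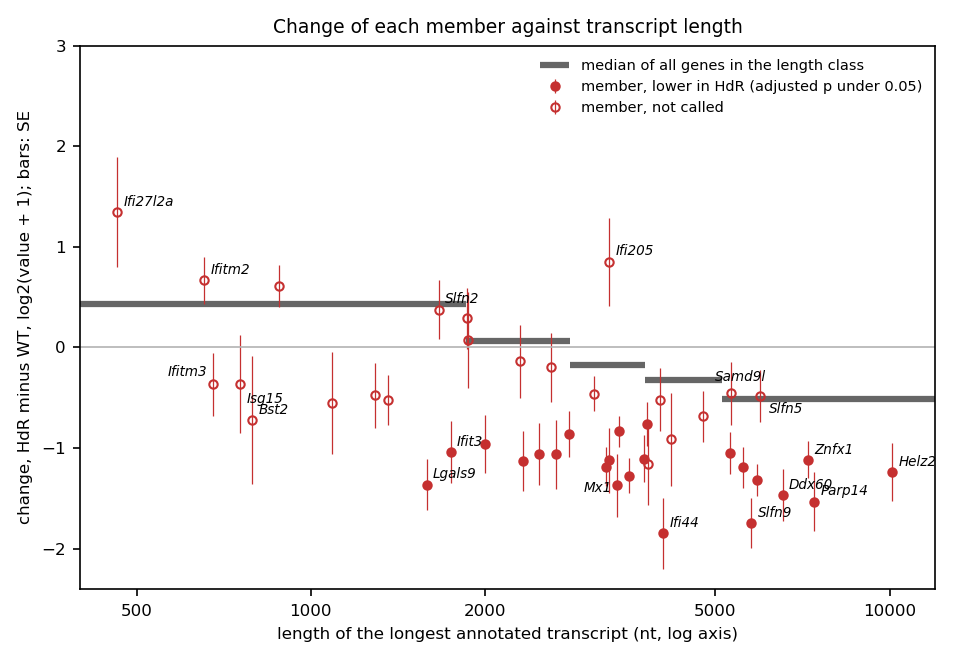
Log2 change of each of the 45 members (HdR minus WT, vertical axis, bars are SE) against the length of its longest annotated transcript in nt (log axis). Filled points are the 23 called lower, open points were not called, and grey bars give the median of all genes in 5 length classes, drawn over the plotted range only; 37 of the 45 points lie below their class's bar.

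**Figure D4:**
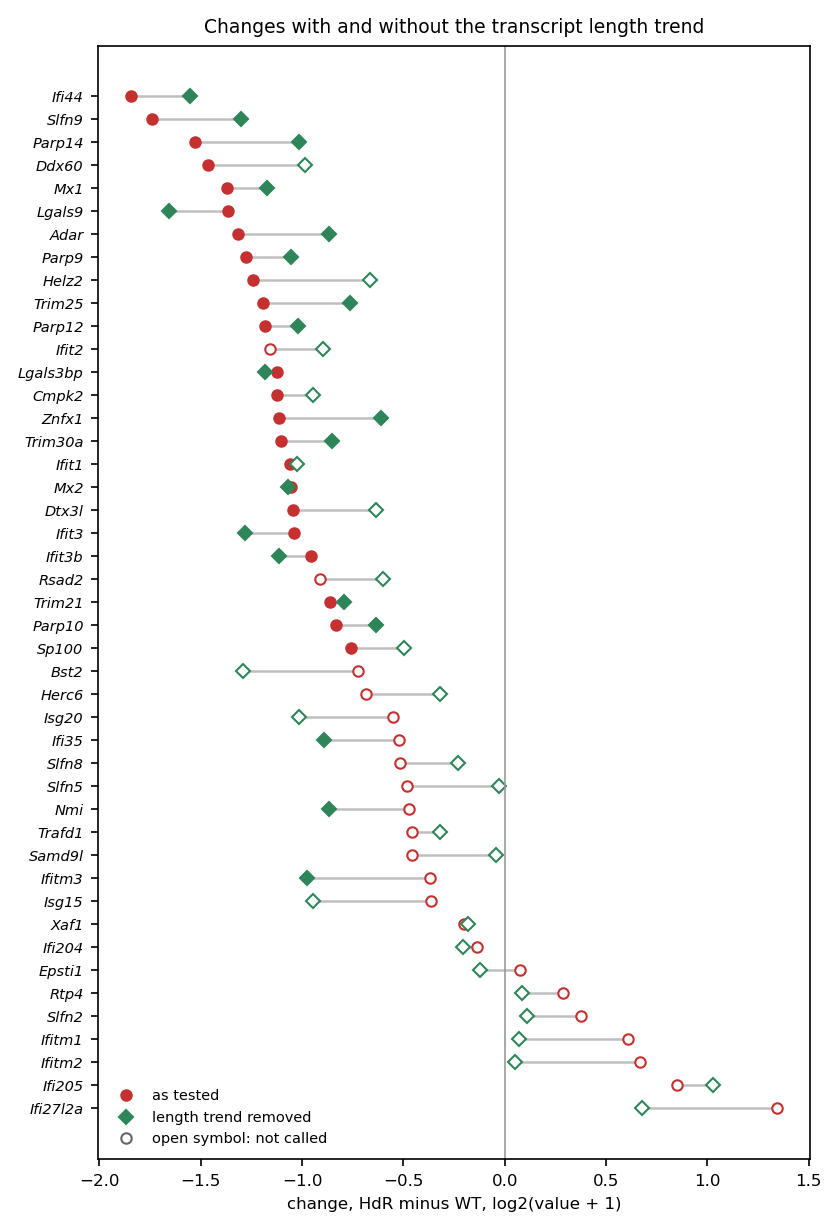
Change of each of the 45 members (HdR minus WT, log2(value + 1) scale, horizontal axis), as red circles without and as green diamonds with the transcript length trend removed, sorted by the first. Filled symbols were called lower and open symbols were not called: 17 members have both symbols filled, 6 only the circle and 3 only the diamond.

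The effectors varied more between libraries of a genotype than most genes, and in WT they shared an order. The range over the 3 WT libraries had a median of 0.83 on the log2 scale across members, against 0.38 across all genes, and over the HdR libraries 0.75 against 0.45. WT replicate 2 was the highest WT library in 38 of 45 members (40.8% of all genes) and WT replicate 3 the lowest in 39 (37.0% of all genes). In HdR, replicate 2 was highest in 21 members (31.6% of all genes), replicate 3 was highest in 19 (32.7%) and lowest in 21 (30.4%), and replicate 1 was highest in 5 (35.8%) and lowest in 15 (19.8%). The median of the members' deviations from their mean over all libraries was 0.45, 0.78 and -0.01 in WT replicates 1, 2 and 3 and -0.47, -0.41 and -0.33 in HdR.

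HdR replicate 3 was the lowest HdR library in some members and the highest in others, as it was among all genes. With the length trend removed it was lowest in 20 members (30.1% of all genes) and highest in 17 (33.6%). Relative to the mean of HdR replicates 1 and 2, 24 members were then lower and 21 higher in this library. At the low end were Bst2 (-2.17 on the log2 scale), Ifi27l2a (-1.51), Epsti1 (-1.34), Lgals3bp (-1.12), Isg20 (-1.10), Isg15 (-1.09), Ifi44 (-1.08) and Xaf1 (-1.06). At the high end were Rsad2 (1.49), Ifit1 (1.10), Mx2 (1.06), Cmpk2 (1.02) and Parp14 (0.90). Both ends hold classical interferon-induced genes. With 1 library there is no test of this pattern, and it was noticed in these data.

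**Figure D5:**
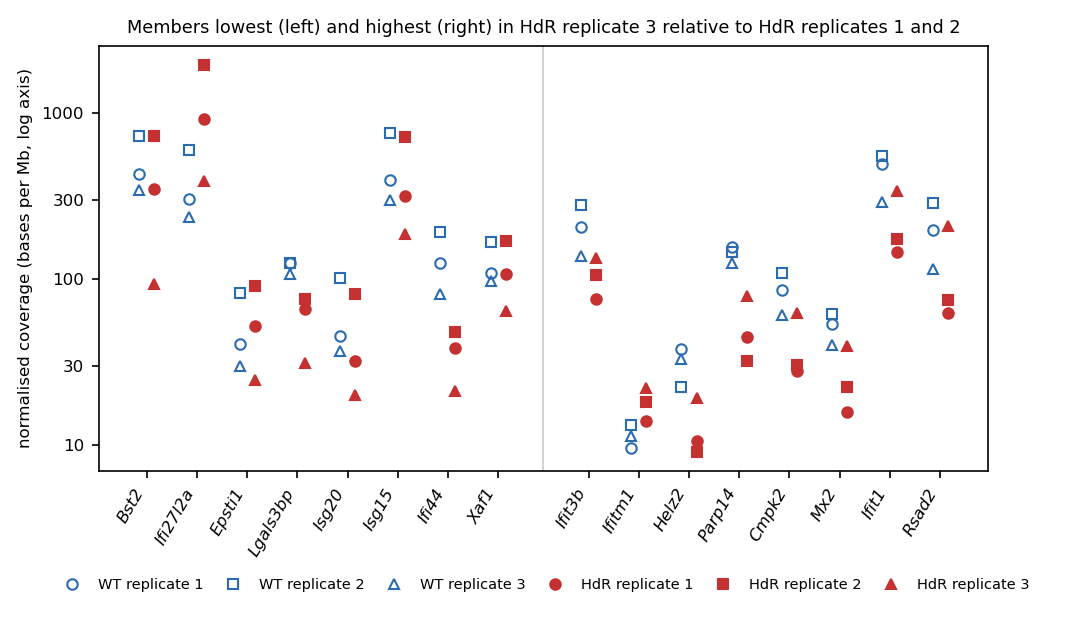
Normalised coverage in bases per Mb (log axis) of the 8 members lowest (left) and the 8 highest (right) in HdR replicate 3 relative to HdR replicates 1 and 2, in each library. Open blue symbols are WT and filled red symbols HdR, with 1 shape per replicate number. The red triangle, HdR replicate 3, is the lowest red symbol in each gene on the left and the highest in each gene on the right. The genes were chosen by this difference, so the place of the triangle follows from the choice.

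Levels differed widely between members. Per kb of the longest coding transcript, Ifitm3 was the most covered member in WT (mean 1038 bases per Mb per kb), followed by Ifi27l2a (819.6), Isg15 (643), Bst2 (632), Ifitm2 (526) and Ifit3 (496). The means of Isg15 and Bst2 differed by less than the SD of either in WT. In HdR the order on the same scale was led by Ifi27l2a (2357), then Ifitm3 (843) and Ifitm2 (819). At the low end in WT were Znfx1 (6.58), Slfn9 (5.89) and Helz2 (3.05).

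The other genes of the pathway were taken as 4 lists. Of the interferons themselves, 8 of the 11 listed were measured and 0 passed the filter, so none was tested. Ifnb1 was at 0 in 5 libraries and at 0.156 bases per Mb in WT replicate 2, and Ifng reached at most 1.08. Of 18 receptor and signalling genes, 5 were lower and 3 higher, beside 17.9% and 12.7% of all genes. With the length trend removed 3 were lower and 3 higher, beside 8.47% and 10.9% of all genes. Stat2, which carries the type I interferon signal to the nucleus, was lower (-1.24, limma adjusted p = 0.00283), and Ifngr1, a receptor chain for interferon gamma, was higher (0.80, adjusted p = 0.00979). Of the 15 OAS, PKR and RNA sensor genes tested, 10 were lower and 1 higher, and 8 and 1 with the trend removed, beside the same shares of all genes. The smallest p-values there were those of Eif2ak2 (PKR, a kinase that stops translation on double-stranded RNA, -1.44, adjusted p = 0.00167), Oasl2 (-1.57, adjusted p = 0.00257) and Oas3 (-1.45, adjusted p = 0.00283). Of 17 GBP and IRG GTPases, which attack the vacuoles of intracellular microbes and are strongly induced by interferon gamma, 2 were lower (Gbp3, -1.32, adjusted p = 0.0129, and Gbp6, -0.83, adjusted p = 0.038), beside the 17.9% of all genes that were, with Gbp7 next at -0.65 (adjusted p = 0.0608). With the trend removed Gbp3 was the 1 that was lower, and Gbp6 was at -0.51 (adjusted p = 0.181). The median changes of the 3 tested lists were -0.40, -1.07 and -0.42, and -0.17, -1.04 and -0.20 with the trend removed. Differences between these lists and the effectors were not tested.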

How the data were processed

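Total RNA of ear skin was extracted with TRIzol and RNeasy columns, made into libraries with the NEBNext Ultra II kit and sequenced on an Illumina NovaSeq, per the labels' protocols. The authors deposited 1 coverage value (signal) per gene symbol and library, read here from the values as a sum of aligned bases. The build was GRCm38, per the submitters' processing notes; aligner, annotation and strand use: not given in the sources used here. Low values gathered at multiples of 300 bases, with 10.2% of them exact multiples, and were not read counts, so no count test was used.

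Values were scaled by trimmed mean of M-values (log ratios trimmed by 30% and levels by 5%) to bases per Mb of effective library size. Genes reaching 1 base per Mb in 3 or more libraries were fitted with robust limma-trend (limma 3.58.1, R 4.3.3) on log2(value + 1), two-sided, with Benjamini-Hochberg adjustment over the 15049 genes and a threshold of 0.05. Summaries used Python 3.11.15 and scipy 1.17.1. The length trend was removed per library with a natural spline (df 4) on the log2 length of each gene's longest transcript in GENCODE M21 (14903 genes). Both steps were tested on simulated data. Libraries of a group correlated at 0.961 to 0.989.

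The first fit had no replicate block. Same-numbered WT and HdR libraries deviated together from their group means, with r of 0.163, 0.416 and 0.366, so by the rule used (r over 0.1 in each of 3 pairs) the numbers were taken to pair the samples. Unlike-numbered pairs lay between -0.378 and 0.159, and the highest, WT 1 with HdR 3, was close to the first pair. The deviations of a group sum to 0 in each gene, so the values of like and unlike pairs depend on each other. The numbers come from the sample titles, which do not say that they pair the samples. Alternatives covered scaling, filter, pseudocount, variance model, block, transcript length and leaving out each library. Every member was named, with the 3 genes of smallest p in each pathway list and the marker sums; 1 of these pathway genes is not reported here. Members and lists were chosen with earlier results of these data known.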

Additional observations from a re-analysis of the deposited data

How the results depend on the processing

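In 25 settings the members' median change stayed negative. The count of members called lower moved by over 1.5 times with no filter on low values (13). It was 18 with the length trend of coding transcripts removed. The count called higher was 1 with median-of-ratios scaling, 1 with quantile normalization, 3 with voom, 4 with the replicate block and 2 with the block and the length trend removed together. Scaling to total bases gave a member median of -1.17 beside an all-gene median of -0.41. Over all genes the count called lower, 2701 at first, was 4305 with total bases, 1127 with no filter, 4647 with voom, 4094 with the replicate block, 1263 with the length trend removed, 1265 with that and total bases, and 1196 with coding transcript lengths, an alternative added after seeing the data. The count called higher, 1904 at first, was 917 with total bases, 1017 with no filter and 3398 with voom. Beyond the calls given beside the results, the block changed no other call of a member. Leaving out 1 library at a time gave 6 to 23 members lower and 0 to 5 higher, and over all genes 230 to 3359 lower and 197 to 2657 higher, each lowest count of calls over all genes being without WT replicate 1. With the trend removed, leaving out WT replicate 1 gave 1 lower member, leaving out WT replicate 3 gave 11, leaving out HdR replicate 1 gave 5 and leaving out HdR replicate 2 gave 10; over all genes, without WT replicate 1, WT replicate 3, HdR replicate 1, HdR replicate 2 and HdR replicate 3 in turn, 90, 220, 661, 412 and 679 were lower and 71, 209, 711, 398 and 945 higher; without WT replicate 2, 1 member was higher. The cause was not tested. Without WT replicate 2, 5 members were called higher. The GBP and IRG median, with the trend removed, was 0.0901 without WT replicate 2. Lgals9 was called in 25 settings and Parp9, Slfn9 and Adar in 24. Depth is known only as bases, and 3 samples a group limit precision.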

Other observations

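Irf7, the transcription factor that amplifies type I interferon production, is no member of the list and was looked at after its values were seen. It was at 602, 1123 and 451 bases per Mb in WT replicates 1, 2 and 3 and at 613, 1018 and 147 in HdR. HdR replicate 3 was the lowest of the 6 libraries, as it was for Bst2, and the second library of each group was the highest. Its change was -0.58 (SE 0.63, limma adjusted p = 0.499).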
